A study of Mus musculus with 9 samples.

Results

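The SLC7 family supplies cells with amino acids, and 8 of its genes (Slc7a1, Slc7a5, Slc7a7, Slc7a8, Slc7a9, Slc7a11, Slc7a12 and Slc7a13) are described here with the 2 heavy chains Slc3a1 and Slc3a2 in sorted mouse podocytes. Members were the probe sets whose platform annotation lists exactly 1 of these 10 symbols, which gave 15 of the 45037 probe sets tested (10 of 18193 genes with such a probe set). Slc7a12 was selected on its measured intensities, which were higher in the diabetic group, so its group difference is described without a test. The others were taken as its relatives and partners. Podocytes are the epithelial cells that cover the glomerular capillaries. They came from 5 OVE26 mice (labelled OVE-GFP, diabetic) and 4 FVB mice (labelled wild type, normal), all of the FVB background strain and aged 3 to 4 months. OVE26 is a transgenic model of early type 1 diabetes in which beta cells overexpress calmodulin. Fluorescent podocytes were sorted from trypsin-dissociated glomeruli in both groups. The labels name a reporter for the OVE26 mice and none for the FVB mice, and they give neither the promoter that drives the reporter nor the sex of any animal.

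Most SLC7 proteins are light chains that carry the transport activity and reach the cell surface only when joined by a disulfide bond to a heavy chain. Slc3a2 encodes the widespread heavy chain 4F2hc (CD98), the partner of LAT1 (Slc7a5), LAT2 (Slc7a8), y+LAT1 (Slc7a7) and xCT (Slc7a11). Slc3a1 encodes rBAT, which joins b0,+AT (Slc7a9) in the brush border of the proximal tubule to take up cystine and basic amino acids, and loss of either gene causes cystinuria in humans. CAT-1 (Slc7a1) carries basic amino acids without a heavy chain. Several of these genes, among them Slc7a11, Slc7a5 and Slc3a2, are known targets of ATF4, the transcription factor of the amino acid response.

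Upstream sequence of 3 members is shown because 2 are the heavy chains, whose group means lay in opposite directions, and the third is a well known ATF4 target of the family. Each is the 250 bases before the RefSeq start of the gene in GRCm38.p6, on the gene's strand. They lie at chr17:85028097-85028346 (plus strand) for Slc3a1, chr19:8713898-8714147 (minus strand) for Slc3a2 and chr3:50443614-50443863 (minus strand) for Slc7a11. Capitals mark matches to any of 4 motifs searched on both strands.
Slc3a1: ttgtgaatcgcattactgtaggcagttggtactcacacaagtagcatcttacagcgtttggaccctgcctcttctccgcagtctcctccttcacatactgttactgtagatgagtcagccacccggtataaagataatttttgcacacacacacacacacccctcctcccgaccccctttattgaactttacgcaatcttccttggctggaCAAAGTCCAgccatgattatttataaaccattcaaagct
Slc3a2: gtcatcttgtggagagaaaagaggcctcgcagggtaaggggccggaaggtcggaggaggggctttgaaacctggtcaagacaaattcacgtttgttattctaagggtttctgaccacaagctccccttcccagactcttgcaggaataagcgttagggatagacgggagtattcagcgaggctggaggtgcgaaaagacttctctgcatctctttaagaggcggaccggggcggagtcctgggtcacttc
Slc7a11: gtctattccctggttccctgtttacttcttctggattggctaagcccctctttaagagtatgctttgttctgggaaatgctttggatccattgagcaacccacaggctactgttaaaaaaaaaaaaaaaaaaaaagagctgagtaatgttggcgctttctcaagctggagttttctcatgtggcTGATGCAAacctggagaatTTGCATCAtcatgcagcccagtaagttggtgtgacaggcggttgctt

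The Slc7a11 window holds 2 matches to the ATF4 composite element TGATGNAA, 1 on each strand, which begin 66 and 47 bases before the start. Of 32851 such windows in the RefSeq table, 3.45% hold at least 1. The Slc3a1 window holds 1 match to the HNF4 site CAAAGTNCA, 39 bases before the start, a motif present in 1.19% of windows. The Slc3a2 window holds no match to these or to the antioxidant response element TGACNNNGC (10.2% of windows) or the HNF1 motif GTTAAT (6.43%). No marked match overlaps another. Among the windows of the other members, 2 of 5 for Slc7a7 hold the ATF4 element, 1 for Slc7a7 holds the HNF1 motif and 1 of 2 for Slc7a1 holds the antioxidant response element. In all, 7 of the 10 members had 13 windows in the table, and Slc7a5, Slc7a12 and Slc7a13 had none. A match is a run of letters and not a measured binding site.

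All values below are log2 of the deposited probe set intensities, and all differences are OVE26 minus FVB on that scale. Array medians ran from 5.07 to 5.13 in OVE26 and from 5.08 to 5.15 in FVB arrays. The 25th percentile of an array, between 3.26 and 3.34, is used here as the level under which signal is not told from background, and a probe set under it is called dim. Xist, the RNA of the inactive X chromosome, averaged 10.41 to 10.83 over its probe sets in OVE26 2, OVE26 3, OVE26 5 and FVB 2, and 3.26 to 4.28 in the other arrays. These are called Xist-high and Xist-low arrays here. The Y-linked genes Eif2s3y, Kdm5d and Uty were the other way round, at 2.06 to 2.60 in those 4 arrays and 5.81 to 6.50 in the others, so the groups were not matched for sex. The podocyte genes Nphs1 (nephrin), Podxl and Wt1 were bright in both groups, with Nphs1 at 11.40 ± 0.29 (SD, n = 5) across OVE26 arrays, against 11.90 ± 0.23 (SD, n = 4) across FVB arrays. The summed log2 level of 25 podocyte markers ran from 254.7 to 265.5 in OVE26 and from 265.8 to 272.0 in FVB arrays, without overlap. None of them was called, while 23 had lower and 2 higher means in OVE26 arrays. Of all 45037 probe sets, 22995 had lower means in OVE26 arrays.

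**Figure D1:**
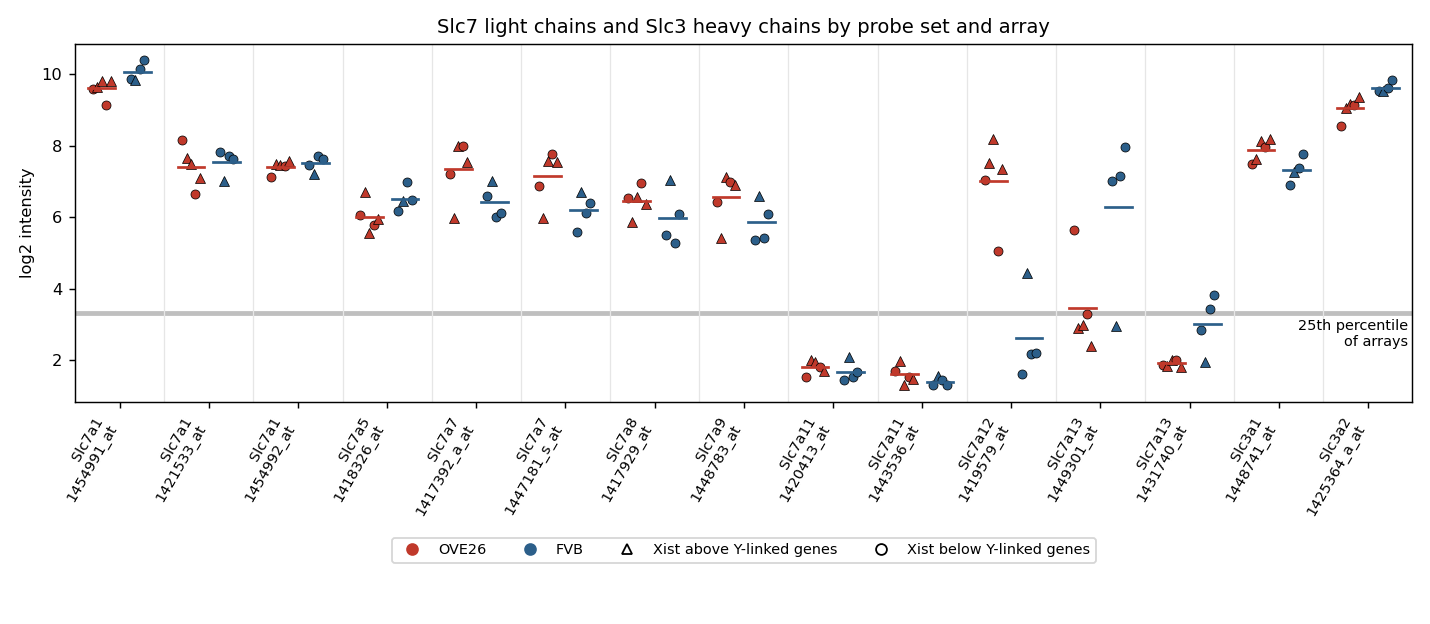
Log2 intensity (y axis) of each of the 15 member probe sets (x axis) in the OVE26 arrays (red, left) and FVB arrays (blue, right). Each point is 1 array, short bars are group means, triangles are arrays with Xist above the Y-linked genes, and the grey band is the range of the arrays' 25th percentiles. Slc7a12 is higher in all 5 OVE26 arrays, Slc7a13 is high in 3 FVB arrays, and both Slc7a11 probe sets lie under the band in all arrays.

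Slc7a12 encodes Asc-2, a transporter of small neutral amino acids first described in mouse kidney whose heavy chain is not settled. Its single probe set read 7.02, 7.50, 8.17, 5.05 and 7.34 in OVE26 arrays 1 to 5, against 1.62, 4.44, 2.16 and 2.21 in FVB arrays 1 to 4. The groups did not overlap, and the lowest OVE26 array (OVE26 4) lay close to the highest FVB array (FVB 2), the only FVB array in which the probe set was not dim. The means were 7.02 ± 1.18 (SD, n = 5) across OVE26 arrays, against 2.61 ± 1.25 (SD, n = 4) across FVB arrays, a difference of 4.41. With the 3 dim FVB arrays raised to their own 25th percentile the difference was 3.42, or 10.7-fold higher in OVE26 arrays at that floor. These values chose the gene and support nothing by themselves.

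The Slc7a12 level also differed between arrays of the same group along the sex-linked genes. In Xist-high arrays it averaged 7.67 in 3 OVE26 arrays, against 4.44 in FVB 2. In Xist-low arrays it averaged 6.04 in OVE26 1 and OVE26 4, against 2.00 in 3 FVB arrays. The differences within these sets were 3.23 and 4.04. OVE26 had to be higher in both, since the groups do not overlap. With a sex covariate (Xist minus the mean of the Y-linked genes) the difference was 3.75. The distal nephron sums also differed between the groups. The summed level of 27 measured distal nephron markers (thick limb, distal convoluted tubule, collecting duct) ran from 178.9 to 211.0 in OVE26 and from 140.2 to 171.9 in FVB arrays. All 27 had a higher mean in OVE26 arrays, against 22042 of all 45037 probe sets. By limma 3 of them passed (Fxyd4, Slc4a9 and Atp6v0d2), where 0.195% of all probe sets were called higher. Fxyd4 passed in 5 of the 9 leave-one-out fits, Atp6v0d2 in 2 and Slc4a9 in 1. Elf5 was dim in all FVB arrays and no marker was dim in all 9. With the score of this list as a covariate the Slc7a12 difference was 2.89. That score ran from 0.18 to 1.37 in OVE26 and from -1.25 to -0.07 in FVB arrays. Without overlap, this fit cannot separate the score from the group. The part of distal nephron cells in the Slc7a12 values was not tested. In sorted cells more cells of a type cannot be told apart from more RNA per cell.

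The genes closest to Slc7a12 over the 9 arrays were Nefl, Rrm2, Nefm, Mymx, Clu, Klk1b5, Slc25a30 and Gsto1. Likeness was the root mean square distance between log2 profiles, each centred on its own mean, and ran from 0.95 for Nefl to 1.38 for Gsto1, while the Slc7a12 profile itself spread by 2.44 around its mean. Nefl, the neurofilament light chain, read 8.14, 9.46, 8.80, 5.50 and 9.03 in OVE26 arrays and 5.24, 6.74, 4.39 and 3.05 in FVB arrays. Like Slc7a12, it was lowest in OVE26 4 among the OVE26 arrays and highest in FVB 2 among the FVB arrays. Nefm, its partner neurofilament chain, averaged 5.37 ± 0.81 (SD, n = 5) across OVE26 arrays, against 2.71 ± 0.84 (SD, n = 4) across FVB arrays. Among the other members the nearest was Slc7a7 (2.08 for the dimmer of its 2 probe sets) and the farthest Slc7a13 (4.29 for the brighter of its 2). These genes were picked for following the pattern, so their group differences are no further evidence of it.

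Of the 14 probe sets of the other 9 members, limma called 0 at an adjusted p under 0.05, over a table in which 0.271% of probe sets were called (0.195% higher, 0.0755% lower). At an unadjusted p under 0.05 there were 7 of 14, against 13.7% of all probe sets. Group means were higher in OVE26 for 7 and lower for 7, with a median difference of 0.01, against -0.01 over all probe sets. In 2 of the 14 (1 probe set each of Slc3a2 and Slc7a1) the groups did not overlap and OVE26 was lower, and in 0 OVE26 was higher without overlap. Over all probe sets 5.45% did not overlap, 2.78% with OVE26 lower and 2.67% with OVE26 higher. An ordinary linear model without moderation also called 0 of them, and 0 probe sets in the whole table (5619 at an unadjusted p under 0.05).

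**Figure D2:**
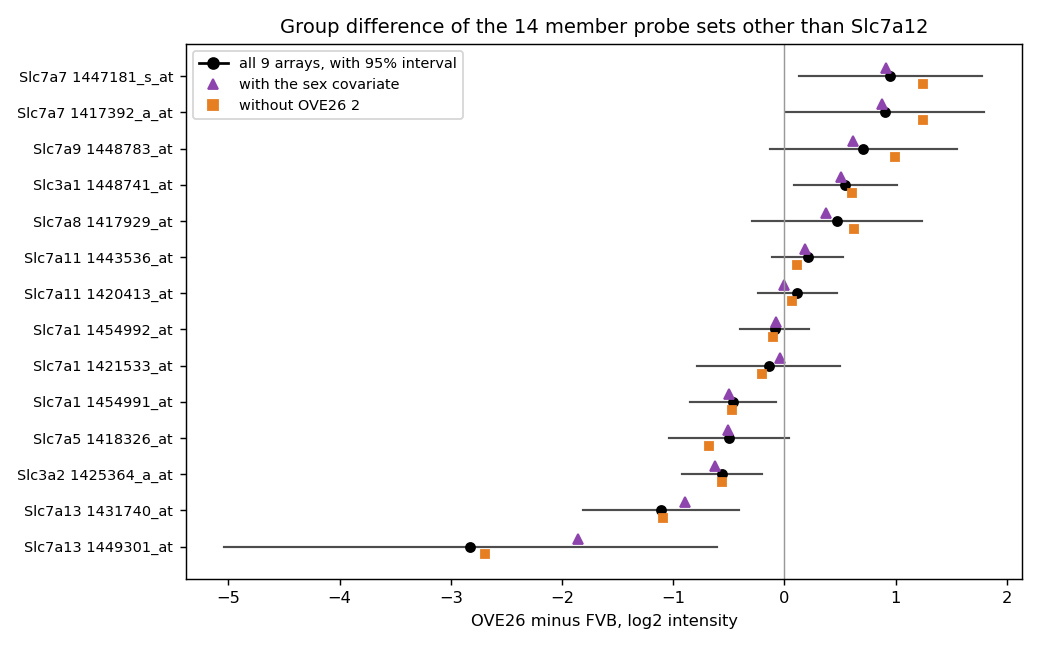
OVE26 minus FVB difference in log2 intensity (x axis) of the 14 member probe sets other than Slc7a12 (y axis). Black points and lines are limma estimates with 95% intervals from all 9 arrays, purple triangles are the estimates with the sex covariate and orange squares those without OVE26 2. The brighter Slc7a13 probe set has the widest interval, from -5.04 to -0.61, and the Slc7a7 values are larger without OVE26 2.

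Slc7a13 encodes AGT1, a transporter of aspartate, glutamate and cystine that pairs with rBAT in the last segment of the mouse proximal tubule. It was high in 3 FVB arrays and near background in most others. Its brighter probe set read 5.64, 2.91, 2.98, 3.29 and 2.40 in OVE26 arrays 1 to 5, against 7.00, 2.96, 7.16 and 7.96 in FVB arrays 1 to 4. The groups overlapped because FVB 2 lay with the dim OVE26 arrays, and OVE26 1 was the only OVE26 array that was not dim. The difference was -2.83 (SE 0.99, limma, adjusted p = 0.250), and -2.59 with dim values raised to the 25th percentile. The dimmer probe set was dim in all OVE26 arrays (1.82 to 2.01) and in FVB 1 and FVB 2, but reached 3.43 and 3.83 in FVB 3 and FVB 4. It differed by -1.11 (SE 0.31, limma, adjusted p = 0.167), and by -0.17 with dim values raised.

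Without FVB 2 both Slc7a13 probe sets passed, at -3.93 (limma, adjusted p = 0.0331) and -1.46 (limma, adjusted p = 0.0192), in a fit that called 0.941% of all probe sets, and 0.224% lower. FVB 2 was the only Xist-high FVB array, so this fit set Xist-low FVB arrays against OVE26 arrays of both kinds. It therefore mixes the group with the sex-linked split. With dim values also raised to the 25th percentile the differences without FVB 2 were -3.60 and -0.22, and neither passed by limma (adjusted p = 0.0609 and 0.451). In Xist-low arrays the brighter probe set averaged 4.46 in 2 OVE26 arrays, against 7.38 in 3 FVB arrays. The difference there was -2.91 (SE 0.71, limma, adjusted p = 0.252). In Xist-high arrays it averaged 2.76 in 3 OVE26 arrays, against 2.96 in FVB 2. The gap between these differences was 2.72 (SE 0.99), and an interaction term for it did not pass by limma (adjusted p = 0.896). With 1 FVB array on that side this term rests on FVB 2 alone. With the sex covariate the difference was -1.85 (SE 0.59, limma, adjusted p = 0.251), and with the distal nephron score as covariate it was -0.20 (SE 1.49). The distal nephron sums given for Slc7a12 did not overlap between the groups. Of 6 markers of the last proximal segment 0 passed by limma, 4 had higher means in OVE26, and their summed level ran from 31.8 to 37.9 in OVE26 and from 29.7 to 35.1 in FVB arrays.

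The genes closest to Slc7a13 by the same distance, a comparison added after the values had been seen, were Slco1a1, Ces1f, Slc22a30, Cyp2j13, Ugt2b38, Cyp4a12a, Akr1c14 and Sox8. Slco1a1, an organic anion transporter that is higher in male mouse kidney, was the nearest, at 0.51 for the dimmer of its 2 probe sets. Its brighter probe set read 6.04, 3.13, 2.79, 2.64 and 2.99 in OVE26 arrays 1 to 5, against 8.96, 2.50, 8.61 and 9.31 in FVB arrays 1 to 4. Kap, the androgen-regulated protein of proximal tubule, read 9.13, 7.95, 8.03, 6.47 and 8.98 in OVE26 arrays, against 11.89, 5.82, 11.87 and 12.36 in FVB arrays. As for Slc7a13, the 3 FVB arrays with Y-linked signal were the highest, and OVE26 4, which also had Y-linked signal, was not among the higher arrays. Of 6 male-biased kidney genes 0 passed by limma, and their summed level ran from 29.5 to 45.3 in OVE26 and from 32.1 to 54.4 in FVB arrays.

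**Figure D3:**
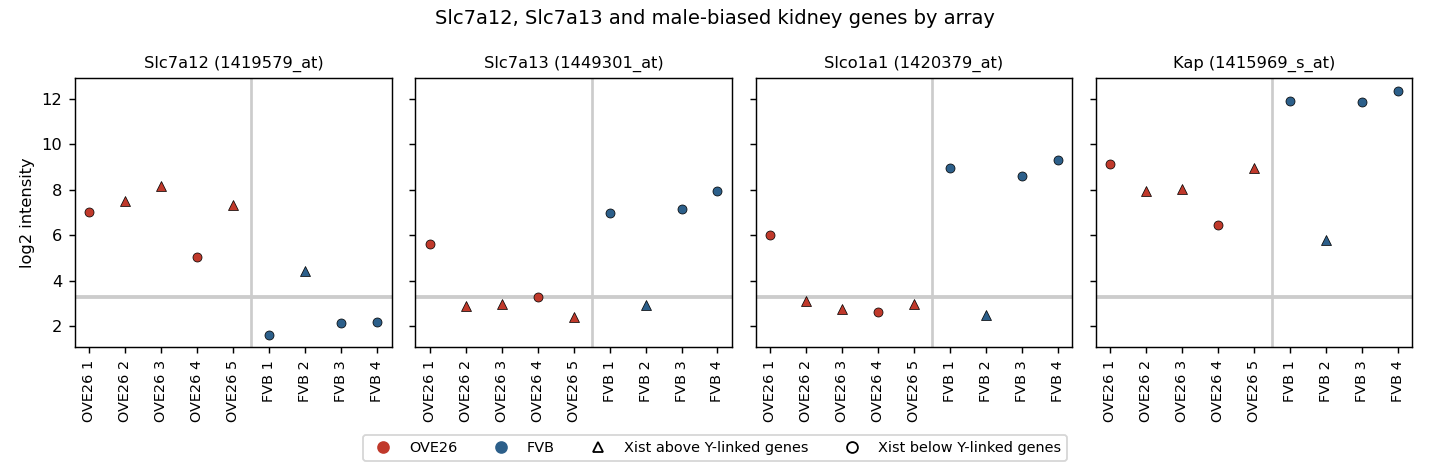
Log2 intensity (y axis) of Slc7a12, Slc7a13, Slco1a1 and Kap, 1 probe set each, in every array (x axis), OVE26 in red and FVB in blue. Triangles are arrays with Xist above the Y-linked genes, circles those with Xist below them, and the grey band is the range of the 25th percentiles. Slc7a12 is lowest where Slc7a13, Slco1a1 and Kap are highest, in FVB 1, FVB 3 and FVB 4.

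Slc3a1, Slc7a9, Slc7a7 and Slc7a8 had higher means in OVE26 arrays, and none passed. Slc3a1 read 7.47, 7.62, 8.12, 7.97 and 8.19 in OVE26 arrays 1 to 5, against 6.90, 7.25, 7.39 and 7.77 in FVB arrays 1 to 4. Only FVB 4 overlapped with the OVE26 range. The difference was 0.55 (SE 0.21, limma, adjusted p = 0.281). Its light chain Slc7a9 read 6.42, 5.42, 7.13, 6.99 and 6.91 in OVE26 arrays, against 5.36, 6.59, 5.42 and 6.08 in FVB arrays. OVE26 2 was as low as the lowest FVB arrays and FVB 2 lay among the OVE26 values. The difference was 0.71 (SE 0.38, limma, adjusted p = 0.450).

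Slc7a7, the light chain that exports basic amino acids from the tubule cell to the blood side and is mutated in human lysinuric protein intolerance, had 2 probe sets that ran together. Its brighter probe set read 7.20, 5.98, 7.98, 7.98 and 7.53 in OVE26 arrays 1 to 5, against 6.58, 7.00, 6.01 and 6.11 in FVB arrays 1 to 4. OVE26 2 was the lowest of all 9 arrays on it (FVB 1 was on the other probe set), and the other OVE26 arrays lay above every FVB array on both. The differences of the 2 probe sets were 0.91 (SE 0.40) and 0.95 (SE 0.37), with limma adjusted p of 0.354 and 0.293. Macrophages also make Slc7a7 in humans and mice. Of 13 macrophage markers 0 passed and 11 had higher means in OVE26, against 22042 of all 45037 probe sets. The summed marker level ran from 64.4 to 80.0 in OVE26 and from 61.7 to 67.2 in FVB arrays. Itgam was dim in all 9 arrays, and C1qb and C1qc in all FVB arrays. The part of macrophages in the Slc7a7 values was not tested.

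Slc7a8, which exchanges neutral amino acids at the basolateral side, read 6.52, 5.86, 6.57, 6.94 and 6.38 in OVE26 arrays 1 to 5, against 5.51, 7.03, 5.28 and 6.10 in FVB arrays 1 to 4. The highest of the 9 arrays was FVB 2 and the groups overlapped, with a difference of 0.47 (SE 0.34, limma, adjusted p = 0.601). It ran from 0.24 without FVB 3 to 0.82 without FVB 2 (limma, adjusted p = 0.209). With the distal nephron score as covariate it was 0.09 (SE 0.61). That score does not overlap between the groups, so this fit cannot separate it from the group. In Xist-low arrays Slc7a8 averaged 6.73 in 2 OVE26 and 5.63 in 3 FVB arrays. In Xist-high arrays it averaged 6.27 in 3 OVE26 arrays, against 7.03 in FVB 2. The interaction term was -1.86 (SE 0.49) and did not pass by limma (adjusted p = 0.770), and it called 0 of all 45037 probe sets.

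The score of 20 proximal tubule markers, the mean of their centred log2 values, was 0.39, -1.96, 0.60, 0.33 and 0.76 in OVE26 arrays 1 to 5, against -0.34, 0.14, -0.16 and 0.24 in FVB arrays 1 to 4. OVE26 2 stood apart at the low end, while its Slc7a7 and Slc7a9 levels lay close to those of the lowest FVB arrays. No marker of this list passed, 11 of 20 had higher means in OVE26, and their summed level ran from 121.7 to 176.1 in OVE26 and from 154.1 to 165.7 in FVB arrays. None was dim in all 9 arrays. Without OVE26 2 the difference of Slc7a9 was 1.00 (limma, adjusted p = 0.175), that of Slc7a8 0.62 (adjusted p = 0.457), that of Slc3a1 0.61 (adjusted p = 0.254) and those of Slc7a7 1.25 (adjusted p = 0.0975) and 1.24 (adjusted p = 0.104). With the proximal tubule score as a covariate these differences were 0.68, 0.46, 0.54, 0.88 and 0.92, with limma adjusted p from 0.101 to 0.536.

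**Figure D4:**
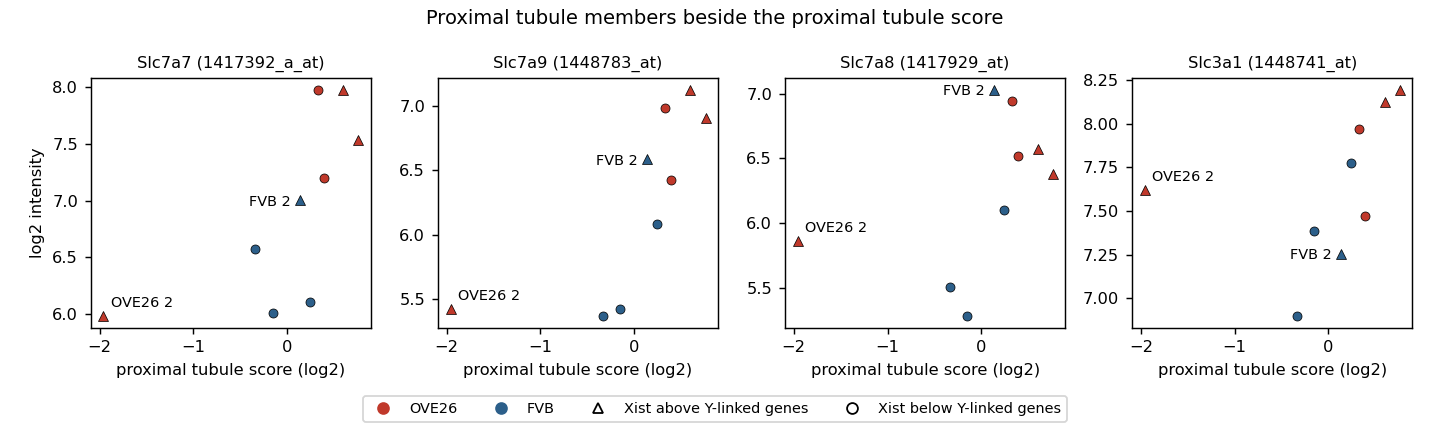
Log2 intensity (y axis) of Slc7a7, Slc7a9, Slc7a8 and Slc3a1, 1 probe set each, against the proximal tubule score of the same array (x axis, mean centred log2 intensity of 20 markers). OVE26 arrays are red and FVB arrays blue, with triangles for Xist above the Y-linked genes. OVE26 2 lies at -1.96 on the score, and its Slc7a7 level of 5.98 is the lowest of the 9 arrays.

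Slc3a2, Slc7a1 and Slc7a5 had lower means in OVE26 arrays, and none passed. Slc3a2 read 8.56, 9.06, 9.17, 9.13 and 9.36 in OVE26 arrays 1 to 5, against 9.52, 9.53, 9.62 and 9.82 in FVB arrays 1 to 4. Every OVE26 array lay below every FVB array. The difference was -0.56 (SE 0.16, limma, adjusted p = 0.170) and ran from -0.64 to -0.44 when 1 array was left out. The brightest of 3 Slc7a1 probe sets read 9.57, 9.65, 9.82, 9.15 and 9.82 in OVE26 arrays, against 9.87, 9.84, 10.14 and 10.39 in FVB arrays. The groups did not overlap by a small margin, and the difference was -0.46 (SE 0.17, limma, adjusted p = 0.275). Its other probe sets overlapped between groups and differed by -0.14 (adjusted p = 0.883) and -0.09 (adjusted p = 0.843).

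Slc7a5, the leucine and large neutral amino acid carrier LAT1, read 6.07, 6.71, 5.55, 5.78 and 5.95 in OVE26 arrays 1 to 5, against 6.16, 6.44, 6.99 and 6.46 in FVB arrays 1 to 4. OVE26 2 lay among the FVB arrays and the others lay below all of them. The difference was -0.50 (SE 0.24, limma, adjusted p = 0.402), or -0.68 without OVE26 2 (adjusted p = 0.175). Slc7a11, the cystine and glutamate exchanger that feeds glutathione synthesis, was dim in all 9 arrays on both probe sets, at 1.31 to 1.99 in OVE26 and 1.29 to 2.09 in FVB arrays. No direction can be read for it.

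Genes of the amino acid response were listed beside these members because ATF4 is known to act on both. Of 30 listed genes all were measured, on 64 probe sets. By limma 1 gene fell on 1 probe set (Trib3) and 0 rose, where 0.0755% of all probe sets were called lower. There were 17 at an unadjusted p under 0.05 (13.7% of all). In 1 OVE26 was higher without overlap (2.67% of all) and in 5 lower (2.78% of all), and the median difference was 0.05, against -0.01 over all. The 5 are both probe sets of Trib3, both of Mthfd2 and that of Chac1, so they are not 5 separate genes. Trib3, a pseudokinase induced by amino acid lack, read 7.75, 8.64, 8.36, 8.03 and 7.92 in OVE26 arrays, against 9.37, 9.25, 9.40 and 10.07 in FVB arrays. It fell by 1.38 (SE 0.22, limma, adjusted p = 0.0433), with the other probe set in the same direction, and passed in 2 of the 9 leave-one-out fits (without OVE26 2 and without FVB 2, adjusted p from 0.0308 to 0.141 over the 9). It missed the threshold by limma with the sex covariate (adjusted p = 0.0816) and with dim values raised (adjusted p = 0.0702). With the distal nephron score as covariate, a fit that called 0 of all probe sets, the limma adjusted p was 0.468. Chac1, which degrades glutathione and is another ATF4 target, read 5.61, 7.62, 6.88, 5.87 and 6.57 in OVE26 arrays, against 8.39, 7.95, 8.37 and 8.71 in FVB arrays. It differed by -1.85 (SE 0.37, limma, adjusted p = 0.0846), and every OVE26 array lay below every FVB array.

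**Figure D5:**
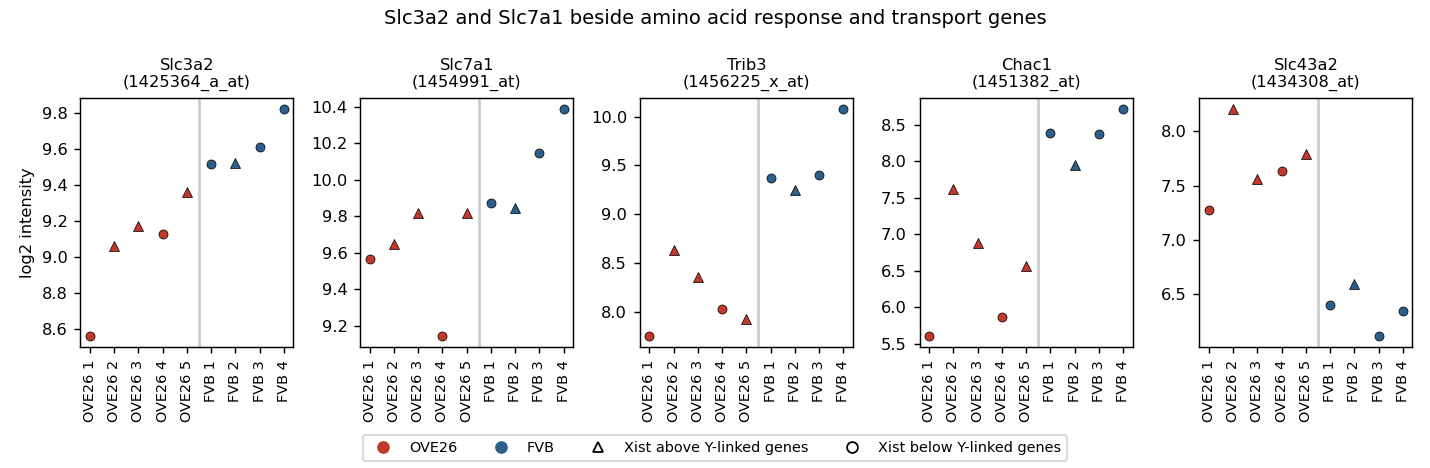
Log2 intensity (y axis, a scale of its own in each panel) of Slc3a2, Slc7a1, Trib3, Chac1 and Slc43a2, 1 probe set each, in every array (x axis), OVE26 in red and FVB in blue. Triangles are arrays with Xist above the Y-linked genes. The probe sets shown for the first 4 genes are lower in all OVE26 arrays than in any FVB array (2.78% of all probe sets). Their differences run from -0.46 for Slc7a1 to -1.85 for Chac1. The other Slc7a1 probe sets, not shown, overlap between the groups. The Slc43a2 probe set is higher in all OVE26 arrays.

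Amino acid carriers of other families were mostly not called either. Of 41 genes listed 36 were measured, on 83 probe sets, of which 2 genes rose on 1 probe set each and 0 fell, where 0.195% of all probe sets were called higher. There were 19 at an unadjusted p under 0.05 (13.7% of all). In 11 OVE26 was higher without overlap (2.67% of all) and in 1 lower (2.78% of all). The 11 include all 4 probe sets of Slc6a6 and a Slc6a14 probe set dim in all 9 arrays, so they are not 11 separate genes. The median difference was 0.13 over the probe sets and 0.04 over the brightest probe set of each gene. Slc43a2, the neutral amino acid carrier LAT4, averaged 7.69 ± 0.34 (SD, n = 5) across OVE26 arrays, against 6.37 ± 0.20 (SD, n = 4) across FVB arrays. Slc6a6, the taurine transporter, averaged 10.67 ± 0.28 (SD, n = 5) across OVE26 arrays, against 9.45 ± 0.32 (SD, n = 4) across FVB arrays. Slc43a2 rose by 1.33 (limma, adjusted p = 0.0313) and Slc6a6 by 1.22 (limma, adjusted p = 0.0391). The other probe sets of both genes ran the same way and did not pass. The brightest of Slc6a6 differed by only 0.50 (limma, adjusted p = 0.0783), and that of Slc43a2 by 1.27 (limma, adjusted p = 0.0668). Slc43a2 passed in 3 and Slc6a6 in 1 of the 9 leave-one-out fits, and both missed the threshold with the sex covariate (adjusted p = 0.0513 and 0.0673). With the distal nephron score as covariate they differed by 0.69 and 1.39 (limma, adjusted p = 0.547 and 0.468). That fit called 0 of all probe sets.

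Genes of glutathione and cystine handling were listed beside Slc7a11 and Slc3a1. Of 24 listed genes 23 were measured on 43 probe sets, and limma called 0 of these (18 at an unadjusted p under 0.05, against 13.7% of all probe sets). In 7 every OVE26 array lay above every FVB array (2.67% of all) and in 1 below (2.78% of all), and the median difference was 0.30, against -0.01 over all probe sets. The 1 below is the Chac1 probe set already given. Srxn1 has more than 1 of the 7, so they are not 7 separate genes. Gsta3, a glutathione transferase, averaged 7.67 ± 0.46 (SD, n = 5) across OVE26 arrays, against 6.12 ± 0.58 (SD, n = 4) across FVB arrays. It differed by 1.55 (SE 0.30, limma, adjusted p = 0.0790), and passed in 2 of the 9 leave-one-out fits (without OVE26 2 and without FVB 2).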

How the data were processed

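Gene expression was read on 1 array per mouse from amplified, biotin-labelled RNA of sorted podocytes, per the labels' protocols. The authors deposited 1 linear intensity per probe set and array, a scale inferred from the values. Per the submitters' processing notes the tools were RMA and Partek. No version is given in the sources used here. RMA shares information between arrays and compresses dim values, so low levels and their folds are uncertain.

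Of 45101 probe sets 64 controls were left out, log2 was taken, and 45037 were fitted in R 4.3.3 by limma 3.58.1, with a group term, empirical Bayes moderation and 2-sided tests on 9 arrays. Adjustment was by Benjamini-Hochberg over all of them, with a threshold of 0.05. The median standard error was 0.17, and the number of arrays limits the precision. Symbols came from the platform annotation, where 34945 probe sets have 1 symbol, 932 have several and 9160 are unnamed. All 15 member probe sets matched the RefSeq gene table by gene identifier. The fit was tested on simulated data. Labels name the arrays as separate mice, so p-values measure the spread between mice, sorts and amplifications together.

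The members and lists were chosen with earlier results of these data known. The text names every member, the called genes of each pathway list or otherwise up to 2 with the smallest p, and the 8 genes closest to Slc7a12. The genes closest to Slc7a13 and the male-biased genes shown beside it were chosen after their values were seen. Marker lists are described by their sums and counts, from the brightest probe set of each gene. Alternatives were a filter on dim probe sets, 1 value per gene, other normalizations and variance models, array weights, a replicate block, covariates, other thresholds and leaving out each array. Fits on Xist-low arrays alone, an interaction with that split, and raising dim values (also without FVB 2) were added after seeing the data. Same-numbered mice of the groups showed correlations of -0.18 to 0.11 between their deviations from group means. The main fit does not pair them, although correlations of so few mice cannot exclude a pairing.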

Additional observations from a re-analysis of the deposited data

Results flagged for a closer look

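Within-group gaps were examined for the 15 member probe sets and 9 marker scores in each group, 48 in all, of which 5 held an array far from the others. Chance gives about 1 in 20. For Slc7a13 (brighter probe set) OVE26 1 stood at 5.64, against 2.40 to 3.29 in the other OVE26 arrays. For 1 of the dimmer Slc7a1 probe sets OVE26 1 stood at 7.12, against 7.44 to 7.56 in the others. OVE26 2 stood at -1.96 on the proximal tubule score, against 0.33 to 0.76 in the other OVE26 arrays, and at 1.37 on the distal nephron score, against 0.18 to 0.52. FVB 2 stood at -1.74 on the score of male-biased kidney genes, against 1.45 to 1.98 in the other FVB arrays. It was the only Xist-high FVB array, so this flag is not independent of the sex-linked split.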

How the results depend on the processing

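Of 347 values of member probe sets under the alternatives, 334 kept their direction and their side of the threshold (for Slc7a12, which has no test, stayed within 1 SD). The 14 other member probe sets gave 0 higher calls throughout and 0 to 2 lower calls when 1 array was left out, the 2 being both Slc7a13 probe sets without FVB 2, and 0 there with dim values also raised. The Slc7a12 difference ran from 2.89 to 5.02. Differences near 0 changed sign, and the cause was not tested: the 2 dimmer Slc7a1 probe sets went to 0.10 and 0.048 with the distal nephron covariate, and the first ran from -0.33 to 0.045 when 1 array was left out, above 0 only without OVE26 4. Slc7a11, dim throughout, went to -0.37 and -0.095 with that covariate, 1 probe set to -0.0037 with the sex covariate, and both to -0.0096 with dim values raised (-0.0078 also without FVB 2). Among all probe sets, 88 were called higher and 34 lower. The counts were 218 and 122 with array weights, 135 and 66 with the proximal tubule covariate, 31 and 6 with the sex covariate, and 249 and 151 at an adjusted p under 0.1. They were 0 and 0 at 0.01, without moderation (5619 at an unadjusted p under 0.05), with the distal nephron covariate (3501) and on the Xist-low arrays (5445). With dim values raised 55 were higher, and 185 were higher and 80 lower when FVB 2 was also left out. A difference of at least 2-fold besides the threshold left 21 lower. Without 1 array higher calls ran from 0 to 323 and lower calls from 0 to 101, with the most without FVB 2, at most 1 without OVE26 3, FVB 1, FVB 3 or FVB 4, and 49 and 21 (OVE26 1), 39 and 9 (OVE26 4) or 33 and 4 (OVE26 5). With the replicate number as a block limma called 0 higher and 0 lower (5353 at an unadjusted p under 0.05), and 0 member probe sets. Using the brightest probe set per gene kept 6 of the 8 genes closest to Slc7a12. Dim values limit what can be said of Slc7a11, of both Slc7a13 probe sets and of Slc7a12 in FVB arrays.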

Other observations

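The SLC7 genes outside the described set and the genes that sense amino acids for mTORC1 (the growth kinase complex that leucine switches on) were also counted. Of 7 other SLC7 genes on 14 probe sets limma called 0, where 0.271% of all probe sets were called. At an unadjusted p under 0.05 there were 3 (13.7% of all), and the median difference was -0.01. Slc7a6, the light chain y+LAT2, differed by 0.71 (SE 0.25, limma, adjusted p = 0.253) on the dimmer of its probe sets and by 0.24 on the brighter. Slc7a3, the cationic carrier CAT-3, differed by 0.67 (SE 0.24, limma, adjusted p = 0.257), at 4.21 ± 0.48 (SD, n = 5) across OVE26 arrays, against 3.54 ± 0.27 (SD, n = 4) across FVB arrays. It was above the 25th percentile in 5 OVE26 and 3 FVB arrays, and its FVB mean lay near background. Of 30 mTORC1 sensing genes 28 were measured on 62 probe sets, and limma called 0 (0.271% of all). At an unadjusted p under 0.05 there were 5 (13.7% of all), and the median difference was 0.04. Mtor differed by -0.71 on its dimmest probe set (limma, adjusted p = 0.147), while the others differed by 0.12 and 0.01, so its probe sets disagree. Mios, a subunit of the GATOR2 complex, differed by -0.57 on the dimmer of 2 probe sets (limma, adjusted p = 0.153) and by -0.15 on the other.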
